A study of Mus musculus with 6 samples.

Results

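Transcripts of the exocrine pancreas were measured in the duodenum of 6 mice, 3 wild-type and 3 VDR-null. The group consists of 10 genes out of the 22180 named genes of the array: the proteases and protease precursors Ctrb1, Ctrl, Try4, Cela1, Cela3b, Cpa1 and Cpb1, the lipase Cel, the granule membrane protein Gp2, and the trypsin inhibitor Spink1. The first 9 are called the enzymes here, although Gp2 is not one. Members were chosen by gene symbol, among probe sets that the platform annotation pairs with a single symbol. Where a gene has several, the one with the highest mean over the 6 arrays stands for it; each member had 1, so no measured value entered that choice. The symbols were picked with earlier results of these data known. All mice were 10 weeks old and of the C57Bl/6 background. The wild-type mice carry the vitamin D receptor and the VDR-null mice lack it, as labelled. The targeted allele, the diet and the way the duodenum was cut out were not stated in the labels used here. RNA of each mouse was hybridised to a whole-transcript array, Affymetrix Mouse Gene 2.0 ST, and a value is a log2 signal.

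Acinar cells of the pancreas make digestive enzymes as inactive precursors, pack them into zymogen granules and release them through the pancreatic duct into the duodenum. There enteropeptidase, a protease of the enterocyte surface, turns trypsinogen into trypsin, and trypsin activates the other precursors. Spink1 guards the acinar cell by blocking trypsin that becomes active too early, and it is also made by the lining of the gut. In mice, pancreatic lobules lie along the duodenum in the mesentery. Transcription of acinar enzyme genes depends on the factor PTF1, which contains PTF1A and RBPJL and recognises an E-box beside a core of the CSL type, and on the nuclear receptor NR5A2.

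Because the enzymes share their cell of origin, the stretch before the start of 3 of them, which make a chymotrypsin, a second protease of the same class and a lipase, is given from RefSeq for GRCm38.p6, 250 bases each, with the start at the right end. Capitals mark CACCTG, 1 form of E-box, and TGGGAA, the CSL core, on either strand, so that they also appear as CAGGTG and TTCCCA.
Ctrb1, chr8:111691011-111691260, minus strand: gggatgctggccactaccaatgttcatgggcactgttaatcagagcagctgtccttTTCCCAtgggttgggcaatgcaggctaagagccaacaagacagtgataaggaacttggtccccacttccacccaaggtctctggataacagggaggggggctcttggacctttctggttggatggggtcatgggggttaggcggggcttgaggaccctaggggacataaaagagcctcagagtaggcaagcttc
Ctrl, chr8:105933863-105934112, minus strand: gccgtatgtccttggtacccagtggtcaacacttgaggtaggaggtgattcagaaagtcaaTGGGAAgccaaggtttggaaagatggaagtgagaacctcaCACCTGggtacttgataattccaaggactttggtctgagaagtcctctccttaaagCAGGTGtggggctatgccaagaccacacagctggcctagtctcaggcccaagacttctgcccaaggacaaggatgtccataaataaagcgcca
Cel, chr2:28563404-28563653, minus strand: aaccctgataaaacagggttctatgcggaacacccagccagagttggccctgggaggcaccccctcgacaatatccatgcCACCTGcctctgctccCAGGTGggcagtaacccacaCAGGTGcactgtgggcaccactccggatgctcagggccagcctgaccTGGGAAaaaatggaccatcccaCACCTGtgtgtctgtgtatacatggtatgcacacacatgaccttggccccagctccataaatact
Of the 10 members, 9 were found in the promoter table; Spink1 was not. Of these 9 windows, 6 held CACCTG on either strand, against 17.2% of all 32851 windows of the same length. TGGGAA was in 5 of 9, against 21.6% of all, and AAGGTCA, the half-site of NR5A2, in 2 of 9, against 4.08%. No copy overlapped a copy of another motif. Other forms of E-box, such as the CAGCTG before the marked CSL core of Ctrb1, were neither marked nor counted. Cel held 4 copies of CACCTG and 1 of TGGGAA, Ctrl 2 and 1, and Ctrb1 0 and 1. These matches describe letters in the window and do not show that a factor binds there.

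The array medians lay between 5.15 and 5.19, and the median of all values, 5.17, is used as the limit under which a signal is called dim. Genes brighter than this limit on 3 arrays or more were tested, 13174 in all. Of the 10 members 6 were tested, Ctrb1, Cpa1, Try4, Ctrl, Cela1 and Spink1, each above the limit on all 6 arrays. Cpb1, Cel, Cela3b and Gp2 were dim on all wild-type arrays and bright on at most 2 arrays, and were not tested. Of 13 brush border genes, such as Lct, Sis and Alpi, 13 were bright enough to be tested, as were 13174 of the 22180 named genes. That is a loose check of the tissue label and does not establish the duodenum. The brush border genes stood lowest on wild-type replicate 1 and highest on VDR-null replicate 1 in 13 of 13 cases. Their means were 9.60 and 11.81 on these arrays and between 10.86 and 11.30 on the other 4.

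All 9 enzymes were highest on the array of VDR-null replicate 3. In the 5 that were bright on every array, Ctrb1, Cpa1, Try4, Ctrl and Cela1, VDR-null replicate 1 was next. Cpb1, Cel and Cela3b were bright on only 2 arrays, VDR-null replicates 3 and 1. Among their dim values an order says little. The chymotrypsinogen Ctrb1 had signals of 7.19, 6.19 and 6.22 on the arrays of the wild-type mice, replicates 1 to 3 in order, and of 8.57, 7.24 and 11.06 on those of the VDR-null mice, given in the same order throughout. The carboxypeptidase Cpa1, which removes amino acids from the end of peptides, gave wild-type values of 5.87, 5.55 and 5.78 and VDR-null values of 6.78, 5.91 and 10.11. Its relative Cpb1 was at 4.63, 4.13 and 3.85 in the wild-type mice and at 5.72, 4.35 and 9.68 in the VDR-null mice. In these 3 genes the third VDR-null mouse stood far above the other mice, those of its own genotype included.

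Trypsin 4, Try4, gave wild-type values of 6.67, 6.19 and 6.61 and VDR-null values of 7.83, 6.77 and 10.38. The chymotrypsin-like protease Ctrl was at 6.71, 6.67 and 6.48 in the wild-type mice and at 7.38, 6.95 and 9.69 in the VDR-null mice. The bile salt-dependent lipase Cel, which splits cholesterol esters and fats, gave wild-type values of 5.10, 4.48 and 4.80 and VDR-null values of 5.86, 4.81 and 9.05. Again 1 array was high, while VDR-null replicate 2 lay at most 0.33 above the wild-type mean.

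The elastases followed the same order at the top. Cela1 was at 6.18, 5.88 and 5.98 in the wild-type mice and at 6.93, 5.85 and 8.25 in the VDR-null mice. Cela3b gave wild-type values of 4.82, 4.80 and 4.73 and VDR-null values of 5.54, 4.95 and 8.41. Gp2, the main membrane protein of zymogen granules, which also marks the M cells over lymphoid follicles, was above the dim limit on 1 array only: it was at 4.05, 4.46 and 3.82 in the wild-type mice and at 4.53, 4.37 and 6.28 in the VDR-null mice.

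**Figure D1:**
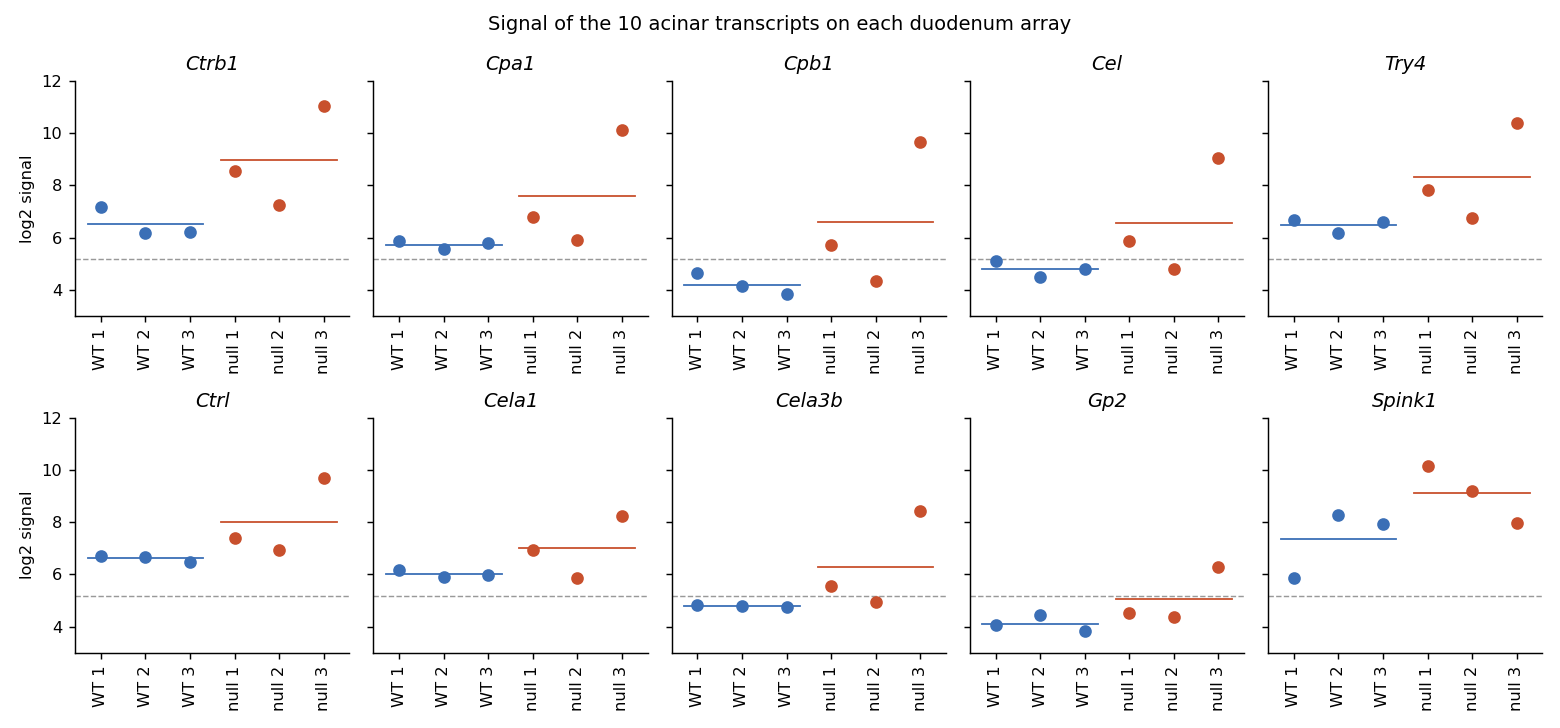
Log2 signal (vertical axis) of the 10 transcripts on each of the 6 arrays; blue points are wild-type (WT) and orange points VDR-null (null) mice, short lines are group means of 3 arrays and the dashed line is the median of all values, 5.17. In all 9 enzymes VDR-null 3 is the highest point, and in the 5 that are bright on every array VDR-null 1 is the next. Spink1 is highest on VDR-null 1 and lowest on wild-type 1.

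The step from the next array to VDR-null replicate 3 differed between the enzymes. It was 15.6-fold for Cpb1, 10.0-fold for Cpa1, 9.12-fold for Cel and 7.30-fold for Cela3b. It was 5.87-fold for Try4, 5.63-fold for Ctrb1, 4.96-fold for Ctrl and 2.50-fold for Cela1. For Gp2, whose next array was dim, it was at least 2.16-fold when counted from the limit of 5.17. These steps compare 1 array with 1 other and carry no error. Of the tested genes 11.0% were highest on VDR-null replicate 3, 1.40% were highest there with VDR-null replicate 1 next, and 0.0531%, or 7 genes, stood there at least 1 log2 unit above all other arrays. All 5 tested enzymes met each of these descriptions, and the 7 genes are these 5 with Sycn and Gm5409.

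VDR-null replicate 1 was the highest array in 24.4% of tested genes and the lowest in 33.5%. The share of tested genes in which it lay above all 3 wild-type arrays was not counted. Its place in the enzymes is therefore given as values only. In the 5 tested enzymes, which were bright on every array, it was above the highest wild-type array by 0.67 log2 units for Ctrl up to 1.38 for Ctrb1. On the linear scale its signal above the wild-type mean was 5.43% of that of VDR-null replicate 3 for Cpa1, 9.37% for Ctrl, 11.0% for Try4, 14.0% for Ctrb1 and 23.9% for Cela1. VDR-null replicate 2 was above all wild-type arrays in 4 of these 5, by at most 0.24, and below them in Cela1. The standard deviation of these 5 among the wild-type mice ran from 0.12 for Ctrl to 0.57 for Ctrb1 (n = 3), and among the VDR-null mice from 1.21 for Cela1 to 2.21 for Cpa1 (n = 3). VDR-null replicate 1 was also the array with the highest brush border genes; their part in these values was not tested.

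Counted over all 22180 named genes, the array of VDR-null replicate 3 stood apart in few genes, and nearly all were acinar. On this array 16 genes lay at least 1 log2 unit above all 5 other arrays, a step set after the values were seen. They were the 9 enzymes, 6 genes of the list of other acinar secretory genes (Pnliprp1, 2210010C04Rik, Sycn, Prss2, Pla2g1b and Serpini2) and the predicted gene Gm5409. Of the 16, 14 were bright on this array, while Pla2g1b and Serpini2 were dim there too, at 5.05 and 4.31. Gm5409, which RefSeq places in the trypsinogen cluster with 5 genes between it and Try4, read between 5.67 and 6.31 on 5 arrays and 9.06 on VDR-null replicate 3. Probe sets for such neighbouring copies can take up each other's RNA, so the trypsin values are not certain to be those of 1 gene. The same count was 83 genes for VDR-null replicate 1, and 4, 1, 1 and 3 for wild-type replicates 1 to 3 and VDR-null replicate 2. No enzyme could be among those genes, as all 9 were highest on VDR-null replicate 3. The same holds for 14 of the 22 other acinar secretory genes measured. The rest of that list and Spink1 were not among them either.

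**Figure D2:**
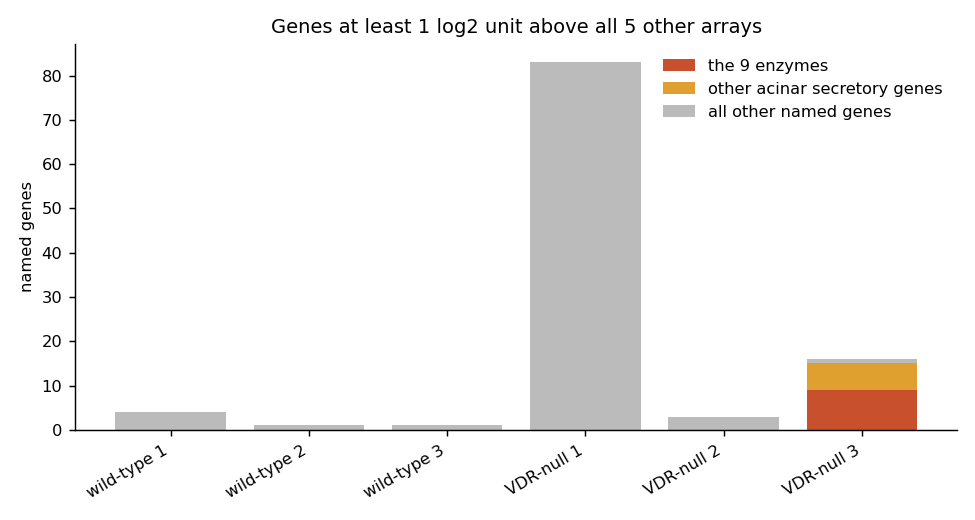
Number of named genes (vertical axis) that lay at least 1 log2 unit above all 5 other arrays, for each array; colours divide them into the 9 enzymes, the other acinar secretory genes and all other named genes. On VDR-null 3 there are 16 such genes, 15 of them acinar (Pla2g1b and Serpini2 among these are dim on every array). The 83 genes of VDR-null 1 hold none of either acinar list. For the 9 enzymes this follows from their being highest on VDR-null 3.

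Other secretory products of acinar cells were divided. Of 28 genes listed, 22 were measured by a probe set of their own and 9 were tested; 10 were dim on all 6 arrays. Of the 22, 14 were highest on VDR-null replicate 3, but 8 of these were dim on every array, where an order says little; of the 9 tested, 3 were highest there (Rnase1, Sycn and Klk1), against 11.0% of all tested genes. Sycn, which encodes the zymogen granule protein syncollin, was between 6.44 and 7.13 on 5 arrays and 9.18 on that of VDR-null replicate 3. The lipase-related Pnliprp1 gave wild-type values of 5.15, 4.90 and 4.93 and VDR-null values of 5.50, 4.84 and 8.32. Its range, 3.47 log2 units, was the widest of this list. The trypsinogen gene 2210010C04Rik was between 3.73 and 4.09 on 5 arrays and 6.88 on VDR-null replicate 3. These 3 were picked for having the widest ranges of the list over the same 6 arrays. That they share the high array of the 9 enzymes is therefore a description only.

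Some listed genes did not have this order. Ctrc, a chymotrypsin of acinar cells, was close to the dim limit, at 5.08, 5.33 and 5.58 in the wild-type mice and at 5.43, 5.31 and 5.51 in the VDR-null mice, with no step on VDR-null replicate 3. Prss3, of the trypsinogen cluster, was dim on all arrays and read lowest, 3.09, on VDR-null replicate 3. Clps, the colipase that lets pancreatic lipase work in the presence of bile, was at 11.85, 10.78 and 10.38 in the wild-type mice and at 10.34, 10.68 and 11.49 in the VDR-null mice. Pnliprp2 gave wild-type values of 10.13, 9.17 and 8.50 and VDR-null values of 8.68, 8.83 and 9.49. Both were highest on wild-type replicate 1 and bright on every array. The secreted ribonuclease Rnase1 read 8.16 on wild-type replicate 1 and 8.19 on VDR-null replicate 3, and between 6.07 and 7.00 on the other 4. Paneth cell genes, 7 measured, were highest on wild-type replicate 1 in 7 of 7 cases, with list means of 11.41 there, 11.11 on VDR-null replicate 3 and between 10.22 and 10.72 on the other 4. Their part in the Clps, Pnliprp2 and Rnase1 values was not tested. The secreted lectins Zg16 and Reg1, known from acinar cells and from the gut lining, were lowest on wild-type replicate 1, at 11.18 and 12.04.

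Regulators of the acinar cell and genes of the islets were not among the genes that stood 1 log2 unit above the other arrays on VDR-null replicate 3, a step that 0.0531% of tested genes had. Ptf1a read between 3.84 and 4.37 on the 6 arrays, with 4.08 on VDR-null replicate 3. Rbpjl read between 5.49 and 5.80 on 5 arrays and 5.89 on VDR-null replicate 3, and Bhlha15, the factor MIST1 of secretory cells, read 6.80 there and between 6.51 and 7.22 elsewhere. Nr5a2 and Gata4, which the gut epithelium also uses, read 9.44 and 8.93 on that array, within their ranges on the others. Of the 8 regulators, 0 stood 1 log2 unit above the other arrays, and 3 were dim on all. Insulin, Ins2, was dim on all 6 arrays, at 3.69 on VDR-null replicate 3 and between 3.53 and 3.96 on the others. Iapp, the islet amyloid hormone, read 3.22 there. Of 9 islet genes measured, 0 were highest on VDR-null replicate 3, where 11.0% of all tested genes were, and 5 were dim on all arrays. The 4 others, Ppy, Sst, Gcg and Mafa, were bright on every array. Ppy, Sst and Gcg are also made by hormone cells of the gut. Mafa read 6.17 on VDR-null replicate 3 and between 5.81 and 6.42 on the other arrays. Of genes typical of other tissues near the duodenum, 0 of 11 stomach genes, 0 of 7 adipose genes and 3 of 7 lymph node and B cell genes measured were highest on VDR-null replicate 3. Those 3, Ms4a1, Cr2 and Fcer2a, were dim on every array, where an order says little. The tested genes of that list, Cd79a, Cd79b and Ccr7, were highest on VDR-null replicate 2. With 11.0% of all tested genes highest there, a count of 0 in lists of this size is not a result about these tissues.

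**Figure D3:**
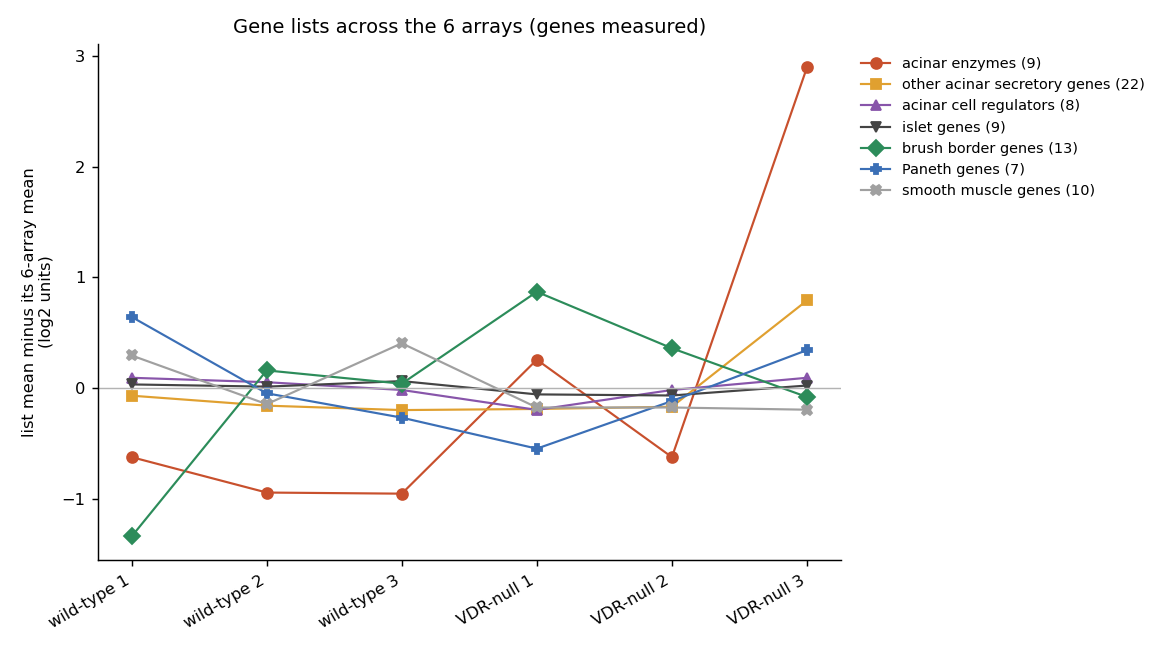
Mean log2 signal of each gene list on each array minus the mean of the list over the 6 arrays (vertical axis); the number of measured genes is in the key, and lines only join values of the same list. The enzymes lie 2.90 above their mean on VDR-null 3 and 0.26 above it on VDR-null 1, islet genes and acinar regulators stay close to 0, and brush border genes are lowest on wild-type 1.

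Spink1, the inhibitor, had a different order of arrays from the enzymes. It was at 5.86, 8.29 and 7.93 in the wild-type mice and at 10.15, 9.21 and 7.98 in the VDR-null mice. The groups overlapped, with VDR-null replicate 3 below wild-type replicate 2. On the array where the enzymes were highest, Spink1 lay at -0.26 relative to its own mean over the 6 arrays, whereas the mean of the enzymes lay at 2.90 relative to theirs. On wild-type replicate 1 Spink1 lay at -2.37 and the enzymes at -0.63. The centred profiles of Spink1 and of the enzymes' mean were 1.81 log2 units apart (root mean square over the 6 arrays).

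The genes nearest to Spink1 by that distance, among tested genes with the other members left out, were Ceacam20, Slc7a15, H2-Q1, Acot12 and Unc93a2, at 0.18 to 0.27. Ceacam20, an adhesion molecule of the intestinal microvillus, gave wild-type values of 6.06, 8.29 and 7.65 and VDR-null values of 9.83, 8.96 and 7.75. Like Spink1 it was lowest on wild-type replicate 1 and highest on VDR-null replicate 1. Of all tested genes 13.5% had this pair of extremes, so the pair is common on these arrays. The brush border genes had it too, and whether their array order has a part in the Spink1 values was not tested.

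The 5 tested enzymes lay 0.16 (Try4) to 0.54 (Cela1) from the mean of the enzymes, of which they are a part. With the members left out, the nearest tested genes were Gm5409, at a distance of 0.22, and Sycn, at 0.64. The next 8, Cyp4f18, Ciart, Alad, Rep15, Per3, Trim12c, Hdhd3 and Trim43c, were 0.99 to 1.15 away, not much less than the size of the enzyme profile itself, 1.36. Sycn was the only one of these 10 in the list of other acinar secretory genes.

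**Figure D4:**
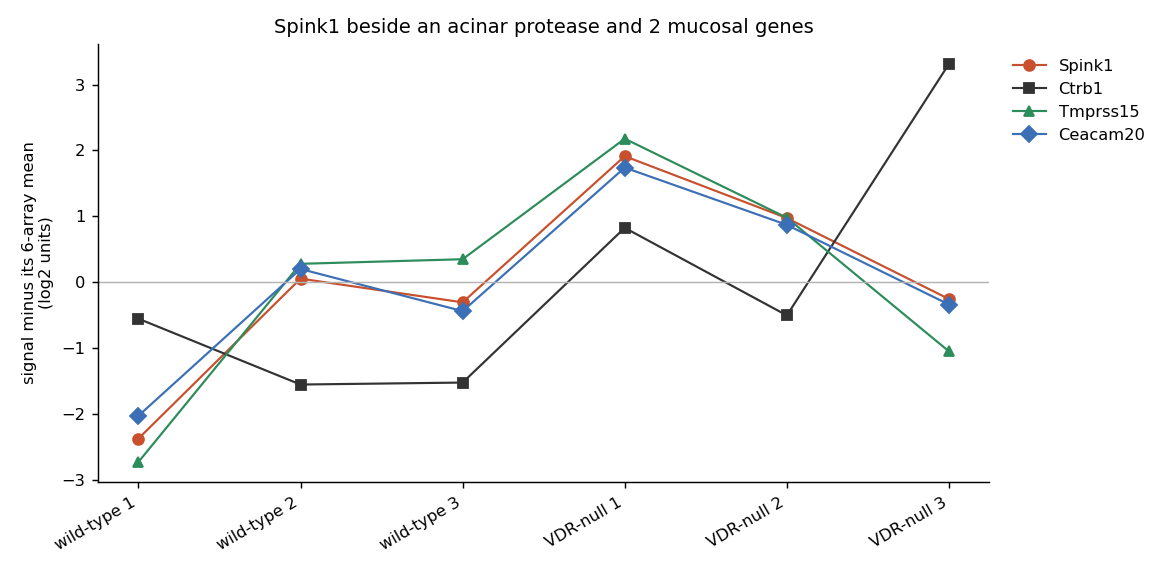
Log2 signal minus the 6-array mean of the gene (vertical axis) on each array for Spink1, the chymotrypsinogen Ctrb1, the enteropeptidase gene Tmprss15 and Ceacam20; lines only join values of the same gene. Spink1, Tmprss15 and Ceacam20 are lowest on wild-type 1 and highest on VDR-null 1, whereas Ctrb1 is highest on VDR-null 3.

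The genes that activate, restrain or call for pancreatic enzymes were measured in the same RNA. Of 10 listed, 9 were measured and 8 tested, and 6 of the 9 were highest on VDR-null replicate 1. Tmprss15, which encodes enteropeptidase, was at 5.21, 8.22 and 8.29 in the wild-type mice and at 10.12, 8.92 and 6.89 in the VDR-null mice. The 2 lowest arrays were thus wild-type replicate 1 and VDR-null replicate 3, the latter the one with the highest trypsin and chymotrypsin signals. The mean of the brush border genes was also lowest on these 2 arrays, at 9.60 and 10.86, so this order is not particular to Tmprss15. Their part in the Tmprss15 values was not tested. Cck, the hormone that makes the pancreas release enzymes, lay between 8.55 and 8.85 on the wild-type arrays and between 8.78 and 9.01 on the VDR-null arrays, and Sct, which makes it release bicarbonate, between 6.55 and 7.05 on all arrays. The inhibitors Spint1 and Spint2 and the goblet cell protein Spink4 varied less than Spink1, with values of 9.50 to 10.52, 11.58 to 11.77 and 10.51 to 11.31.

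Between the genotypes, the enzymes were higher in VDR-null duodenum by values that no adjusted test separated from the spread. Over all 13174 genes, limma with Benjamini-Hochberg adjustment called 0 at an adjusted p of 0.05 (0% of tested genes), with 689 (5.23%) at an unadjusted p under that level. Ctrb1 was 5.36-fold higher, with a log2 difference, VDR-null minus wild-type, of 2.42 (SE 0.89; 95% interval 0.30 to 4.55; unadjusted p = 0.0309 and adjusted p = 0.683 in limma). Without VDR-null replicate 3 the difference was 1.37 (limma adjusted p = 0.415). Cpa1 differed by 1.87 ± 0.98 (SE), Try4 by 1.84 ± 0.83, Ctrl by 1.39 ± 0.66 and Cela1 by 1.00 ± 0.54, each with a limma adjusted p of 0.683 and an interval that includes 0. Without VDR-null replicate 3 these were 0.61, 0.81, 0.54 and 0.38, and Cela1 differed by 1.58 without VDR-null replicate 2. For Cpb1, Cel, Cela3b and Gp2 the dim wild-type values set no fold.

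The mean over the 9 enzymes was 5.48 ± 0.19 (SD, n = 3) in wild-type and 7.16 ± 1.83 (SD, n = 3) in VDR-null duodenum, a difference of 1.68 that became 0.65 without VDR-null replicate 3. With values under 5.17 raised to it the difference was 1.48. The median difference of the 9 enzymes was 1.78 and that of all tested genes -0.026. In 4 of the 5 tested enzymes (Ctrb1, Cpa1, Try4 and Ctrl) every VDR-null array was above every wild-type array, as in 4.87% of the genes tested. For VDR-null replicate 2 this rested on gaps of 0.03 for Cpa1 to 0.24 for Ctrl. The 9 share the same 6 mice and are not replicates of a condition. In such bulk samples more acinar cells and more RNA per cell cannot be told apart.

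**Figure D5:**
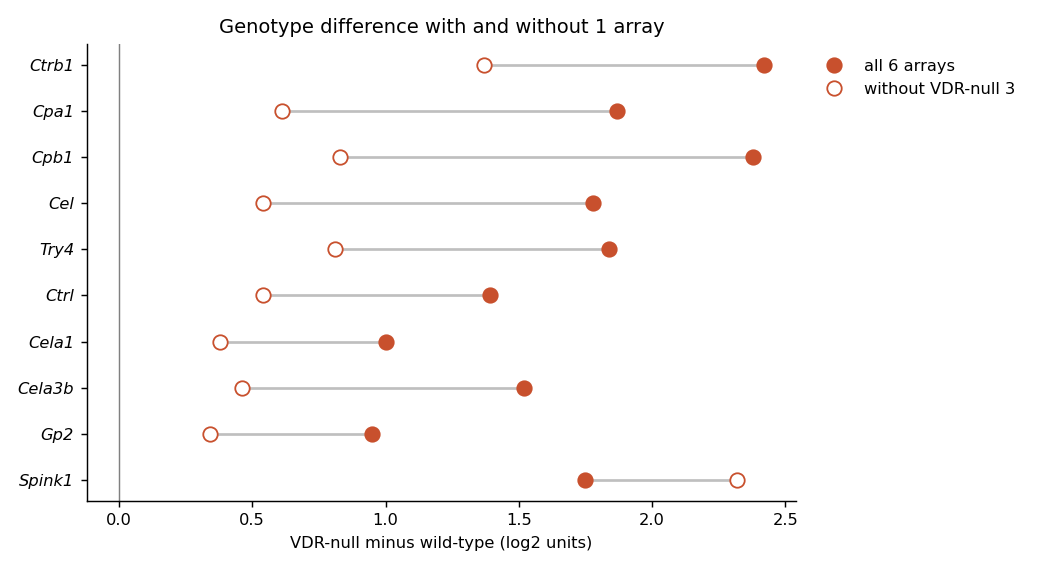
Log2 difference between VDR-null and wild-type means (horizontal axis) for the 10 transcripts, with all 6 arrays (filled) and without VDR-null 3 (open); errors are in the text for tested genes, and background limits the values of Cpb1, Cel, Cela3b and Gp2. VDR-null 3 is the highest array of every enzyme, so each difference is smaller without it, 0.61 in place of 1.87 for Cpa1. For Spink1 it is the lowest VDR-null array, so that difference is larger without it, 2.32 in place of 1.75.

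Spink1 was 3.37-fold higher in VDR-null duodenum, by 1.75 log2 units (SE 0.75; 95% interval -0.04 to 3.54; adjusted p = 0.683 in limma). Its difference grew to 2.32 without VDR-null replicate 3 and fell to 1.00 without wild-type replicate 1, to 1.23 without VDR-null replicate 1 and to 0.49 without both replicate 1 arrays, with limma adjusted p values from 0.415 to 1.00 over all the alternatives. The inhibitor and the enzymes thus had similar mean differences, 1.75 and 1.68, which depended on different arrays. Among the other acinar secretory genes the median difference was 0.25 over the 22 measured, and 5 of the 9 tested were higher in VDR-null duodenum, 0 of them past the limma threshold. Tmprss15 differed by 1.40 ± 1.06 (SE; limma adjusted p = 0.691).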

How the data were processed

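Duodenal RNA (150 ng per mouse, per the labels' protocols) was measured on 6 arrays. The authors deposited log2 signals for each probe set. Per the submitters' processing notes they used RMA and Affymetrix Expression Console; which version, and whether all arrays were normalized together, is not stated there. The base of 2 follows from RMA and the range, 1.99 to 13.8.

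Of 41345 probe sets, 23521 carry a single gene symbol in the platform annotation, 1814 carry several and 16010 lack one; only the first were named, so several amylase probe sets, which carry several symbols, were not used. All 10 member IDs carried the same symbol in RefSeq for GRCm38.p6. Quantile normalization sets equal distributions, and RMA compresses dim signals, so folds of dim genes are understated. The genotype comparison used limma (version 3.58.1; R 4.3.3; lmFit, eBayes, two-sided, no covariate, Benjamini-Hochberg over 13174 genes). The procedure was tested on simulated data. Depth does not apply to arrays; their number limits the precision, and p-values measure the spread between these mice.

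The members, lists and rules were chosen with earlier results of these data known. Named genes were the members, list genes by counts and examples, and the nearest profiles, 10 to the enzymes and 5 to Spink1. Alternatives were other filters, normalizations and priors, the replicate block, arrays left out, and other probe set choices.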

Additional observations from a re-analysis of the deposited data

How the results depend on the processing

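limma called 0 genes under each of the 16 alternatives to the filter, normalization, prior, block, probe set choice and set of arrays. At an unadjusted limma p under 0.05 there were 284 to 1569 genes, and 2337 of 41345 probe sets when all were fitted. The number tested differed between the settings, from 12373 to 41345. Same-numbered arrays did not deviate together in every pair (correlations -0.62, 0.19 and -0.26), so the numbers are not taken as pairs. With the replicate block limma called 0 genes, with 338 at that level, and gave Spink1 a limma adjusted p of 0.831. Of the 16 alternatives, 10 can move the difference of a single enzyme (the normalizations and the sets of arrays); in these each of the 9 enzymes stayed higher in VDR-null duodenum, 4 of them with dim wild-type values. The mean difference of the enzymes ran from 0.65 (without VDR-null replicate 3) to 2.42 (without VDR-null replicate 2), and that of Spink1 from 0.49 (without both replicate 1 arrays) to 2.32. The number of enzymes whose groups did not overlap, 5 of 9 with dim Cela3b counted, ran from 5 to 9 when 1 array was left out, with 9 without VDR-null replicate 2. Of all tested genes, 4.87% had every VDR-null array above every wild-type array. This share was not counted with an array left out. Leaving out an array can only keep or raise the number of enzymes, so its range does not test the separation. The leave-one-out form of this count, and the raising of dim values, were chosen after seeing the data. With 3 arrays a group and 4 members dim in wild-type duodenum, small differences were not detectable. A difference as large as the 5.36-fold of Ctrb1 was not called either (limma adjusted p = 0.683).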
